A study of Mus musculus with 8 samples.

Results

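The noncollagenous matrix glycoproteins and proteoglycans are the proteins that fill and organise the space between the collagen fibres of the heart wall. A set of 42 genes of this kind was taken by gene name from a count table of 46040 genes, and all 42 were found, 1 row each. The table holds RNA sequencing of the left ventricle (LV) of 8 male C57BL/6 mice, 5 to 7 months old, at day 14 of angiotensin II (angII) infusion at 0.1 mg/kg/h, which raises blood pressure and loads the LV. One group is the littermate controls, and the other, VEGFR-1 TK-/-, carries an *Flt1* allele whose receptor lacks the intracellular tyrosine kinase domain in every cell, with 4 libraries in each. Every mouse received angII and was alive at day 14, so the comparison is between genotypes under pressure overload among survivors, with no unloaded heart beside it. For each library the name in the table and the genotype tag give 1 genotype, while the GEO sample title gives the opposite genotype. The groups follow the names and tags and are called control-tagged and TK-/- tagged, and every sign below turns over if the titles are right. Nothing in the labels says more about separate litters or days, so p-values measure only the spread between these libraries.

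As background, fibronectin is laid down early in wounded or loaded tissue as a scaffold on which other matrix proteins assemble. Fibrillins form microfibrils, on which fibulins, EMILINs and elastin build elastic fibres, and latent TGF-beta binding proteins (LTBPs) hold TGF-beta in that network until it is released. Matricellular proteins such as periostin, tenascin C and the thrombospondins signal to cells more than they bear load, and small leucine-rich proteoglycans such as decorin and biglycan set the spacing and thickness of collagen fibrils. Cardiac fibroblasts are a main source of many of these proteins, and genes of several of them are known to be raised in the pressure-loaded heart.

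*Flt1*, the targeted gene, had a normalized CPM (CPM, the depth-scaled count, on TMM-adjusted library sizes) of 67.4, 68.4, 56.9 and 84.3 in control-tagged replicates 1 to 4 and of 144, 149, 169.6 and 168 in TK-/- tagged replicates 1 to 4. Reads over all exons were counted together, whether or not a transcript carries the kinase domain, so these values do not settle the labels. Between 11449137 and 16239670 counts fell on genes in each library, and the 42 genes took 49809 to 114750 of them, a share of 0.369% to 0.929%. Cardiomyocyte markers (6 genes) summed to 55491 to 89463 normalized CPM, and fibroblast, endothelial and smooth muscle markers were all detected, as in whole LV tissue. The library names refer to cardiomyocytes, and the levels of the fibroblast markers (6 genes, 1176 to 1837 summed normalized CPM) show that other cells were present. Adipocyte markers (4 genes) summed to at most 1.35 normalized CPM. In such bulk RNA, fewer cells of a type and less RNA per cell cannot be told apart.

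A pair of libraries stood apart in the matrix genes. TK-/- tagged replicate 3 had the lowest normalized CPM of the 8 libraries in 34 of the 41 matrix genes tested, against 13.6% of all genes tested. Control-tagged replicate 2 was the highest in 18 of the 41, against 19.5% of all genes. Relative to its mean over the 8 libraries, the median matrix gene lay 0.65 below on the log2 scale in the former, a value of -0.65, and 0.45 above in the latter. In the other control-tagged libraries this median was 0.14, 0.16 and -0.02 (replicates 1, 3 and 4), and in the other TK-/- tagged libraries it was 0.00, -0.26 and 0.14 (replicates 1, 2 and 4). TK-/- tagged replicate 4 thus sat among the control-tagged libraries, and it was the highest of its group in 27 of the 41 genes. Over all genes tested the same median lay between 0.00 and 0.02 in every library, and there control-tagged replicate 3 was the most often extreme, the highest in 22.1% of genes and the lowest in 23.2%. The cell markers moved as well. Cardiomyocyte markers were lowest in control-tagged replicate 2 (55491 summed normalized CPM) and highest in TK-/- tagged replicate 3 (89463), and fibroblast markers were lowest in TK-/- tagged replicate 3 (1176). Control-tagged replicate 3 had nearly as high a cardiomyocyte marker sum (87276 normalized CPM) and the highest fibroblast marker sum (1837), with matrix genes at a median of 0.16. The part of cell composition in the matrix values was not tested.

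**Figure D1:**
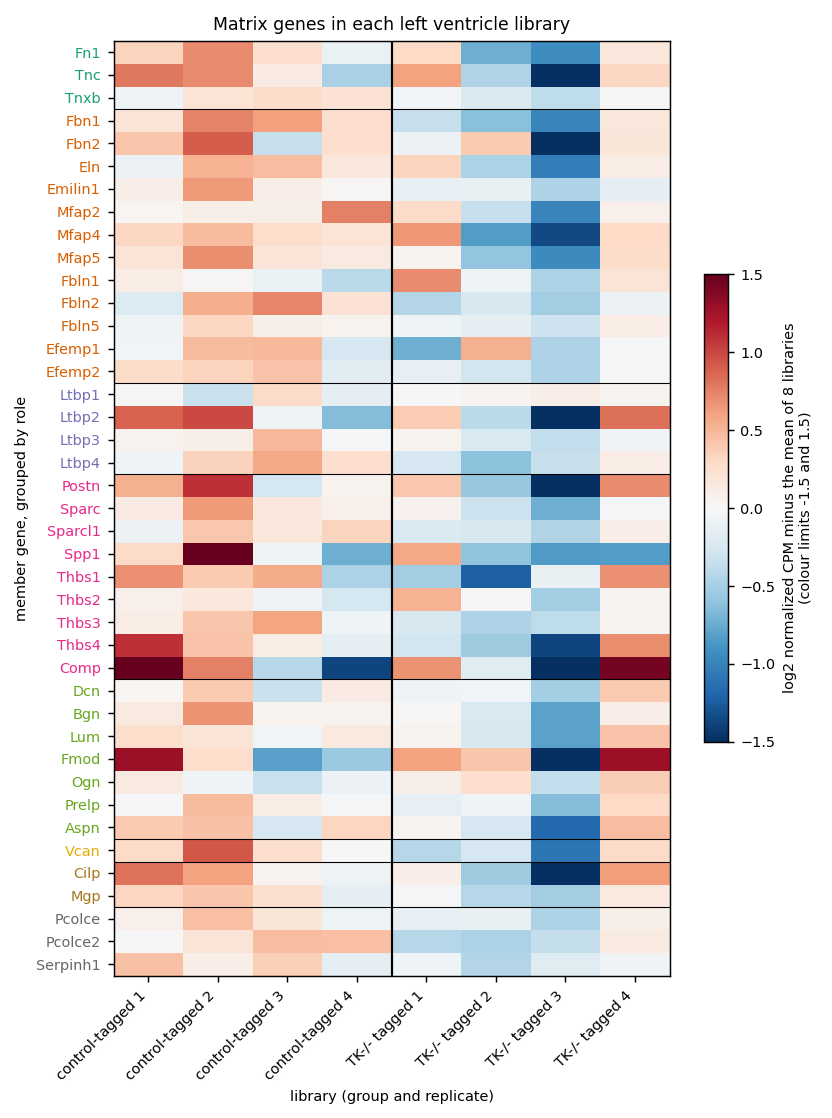
Heat map of 41 matrix genes (rows, grouped by role and coloured by it) in the 8 libraries (columns, 4 control-tagged and 4 TK-/- tagged); colour is log2 normalized CPM minus the gene's mean over the libraries, and values beyond 1.5 either way take the end colour. TK-/- tagged replicate 3 is the lowest library in 34 of the 41 genes, and TK-/- tagged replicate 4 looks like the control-tagged libraries.

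Of the 42 genes, 41 passed the filter on low counts (CPM 1 or more in 2 or more libraries) and were tested among 13542 genes. The remaining gene, *Hapln1*, whose product links proteoglycans to hyaluronan, had 0 counts in all 8 libraries. The median log2 fold change (TK-/- tagged minus control-tagged) of the 41 genes was -0.44. The median absolute value was 0.44, against 0.13 over all genes tested, and 36 of the 41 had a value below 0, against 50.3% of all genes. None of the 41 was called by edgeR's quasi-likelihood test with both an FDR below 0.1 and a difference of 1.5-fold or more, where 0.00738% of all genes were called. Before adjustment, 17 of the 41 had a p under 0.05, all 17 lower in the TK-/- tagged libraries, against 8.96% of all genes in either direction and 5.64% in the lower direction. The likelihood ratio test of edgeR called 2 of the 41, *Fbn1* and *Fbln2*, against 0.391% of all genes, and DESeq2 called the same pair, against 0.236%. With no filter on low counts the quasi-likelihood test called *Fbn1*, against 0.102% of all genes. The groups did not overlap in 3 of the 41 genes, *Fbn1*, *Emilin1* and *Sparc*, against 4.98% of all genes. In all 3 the TK-/- tagged libraries were the lower, against 2.53%.

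The number of genes with an unadjusted p under 0.05 changed with the libraries in the fit, and lay between 11 and 25 when each library was left out in turn. Without TK-/- tagged replicate 3 the median log2 fold change of the 41 genes was -0.25, and 11 had an unadjusted p under 0.05, 9 of them lower, against 6.2% of all genes. The count was also 11 without control-tagged replicate 2, against 7.73%, and 11 without TK-/- tagged replicate 2, against 5.25%. A further fit left out both control-tagged replicate 2 and TK-/- tagged replicate 3. Since they were picked as the highest control-tagged and the lowest TK-/- tagged library in these same genes, differences had to shrink, and the fit shows only what the other 6 libraries hold. In it the median was -0.17, 31 of the 41 genes were below 0, against 49.4% of all genes, and 8 had an unadjusted p under 0.05, against 7.1% of all genes in that fit. Of these, 6 were lower (*Fbn1*, *Fbln2*, *Ltbp4*, *Thbs3*, *Pcolce2* and *Serpinh1*), against 4.18% of all genes, and 2 were higher (*Fbln1* and *Ogn*), against 2.93%. Matrix genes also varied more within groups than other genes did. The median SD between libraries of a group was 0.38 on the log2 scale for the 41 genes and 0.21 for all genes tested.

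**Figure D2:**
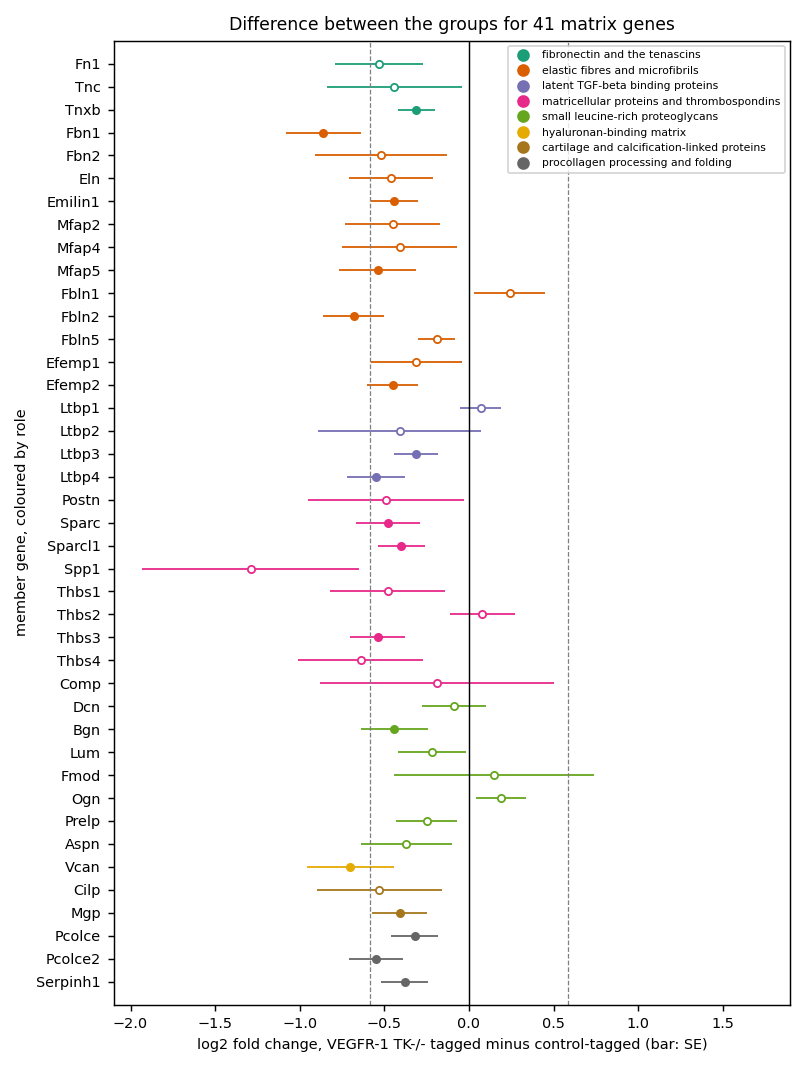
Log2 fold change of 41 matrix genes, TK-/- tagged minus control-tagged (x axis), with bars of 1 SE from edgeR's fit; filled points had an unadjusted p under 0.05, open points did not, and dashed lines mark 1.5-fold either way. The values of 36 genes lie below 0 and those of *Fbln1*, *Ltbp1*, *Thbs2*, *Fmod* and *Ogn* above it.

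Promoter sequence was described for 31 of the 42 matrix genes, those matched in the table of RefSeq promoter sequences used here (GRCm38.p6), with 42 windows of 250 bases that end where the RefSeq transcript starts. Some windows lay in annotated exons of their own gene, with all 250 bases in *Fbn1*, *Fbln2*, *Emilin1* and *Hapln1* and 238 in *Sparc*. Of these, *Fbn1* and *Fbln2* are among the genes with a GC box below. Other windows overlapped such exons less or not at all. Both strands were searched for short letter strings that transcription factors are known to bind. The GC box was searched as GGGCGG and the TATA box as TATAAA. The CCAAT box was searched as its name spells it. The Smad-binding element was taken as CAGAC, the TEAD motif as GGAATG, and the AP-1 motif as TGA and TCA with any 1 base between them. The GC box stood in 14 of 18 windows (77.8%) of the genes with an unadjusted p under 0.05 and in 8 of 23 windows (34.8%) of the other tested genes, against 32.7% of 32851 windows of all genes. Counted by gene, it stood in 10 of 14 and in 7 of 16, a smaller contrast, since some genes of both sets have more than 1 window. *Efemp2* and *Ltbp4* have 3 each in the former set, and *Postn*, *Fbln5* and others have more than 1 in the latter. The TATA box stood in 0 of those 18 windows and in 7 of the other 23 (30.4%), or 0 of 14 and 6 of 16 genes, against 12.4% of all windows. CAGAC was in 6 of the 18 windows and 15 of the 23 (6 of 14 and 12 of 16 genes), against 42.2% of all. The CCAAT box (3 of the 18 and 7 of the 23, against 33.8%), TEAD (0 and 3, against 12.6%) and AP-1 (1 and 1, against 6.75%) made up the rest. Windows of 1 gene overlap, the split uses the p-values above, and a match is letters in a window and not a shown site, so these shares are a description with no test.

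The windows of *Thbs3* and *Vcan*, which hold the GC box letters, and of *Aspn* and *Ogn*, which hold the TATA box letters, show the contrast. Their log2 fold changes were -0.54, -0.70, -0.37 and 0.19 in this order. The unadjusted p was 0.198 for *Aspn* and 0.234 for *Ogn* in edgeR's fit. Of the 6 genes with the TATA box letters, *Aspn*, *Postn* (-0.49), *Tnc* (-0.44) and *Spp1* (-1.29) were below 0, and *Ogn* and *Thbs2* (0.08) above. The split is thus by p and not by direction alone. Capitals mark all matches to the letters above on either strand, and in *Ogn* the 2 TATA matches overlap each other. Matches were counted anywhere in a window. The TATA matches of *Aspn* and *Ogn* lie nearer the start of the window than its end, where the transcript starts.
*Thbs3*, chr3:89214930-89215179, plus strand: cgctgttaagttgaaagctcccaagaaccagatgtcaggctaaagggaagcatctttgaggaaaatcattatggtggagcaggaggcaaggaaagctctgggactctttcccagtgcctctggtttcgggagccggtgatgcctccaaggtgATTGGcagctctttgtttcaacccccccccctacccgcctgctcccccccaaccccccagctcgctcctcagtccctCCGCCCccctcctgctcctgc
*Vcan*, chr13:89742513-89742762, minus strand: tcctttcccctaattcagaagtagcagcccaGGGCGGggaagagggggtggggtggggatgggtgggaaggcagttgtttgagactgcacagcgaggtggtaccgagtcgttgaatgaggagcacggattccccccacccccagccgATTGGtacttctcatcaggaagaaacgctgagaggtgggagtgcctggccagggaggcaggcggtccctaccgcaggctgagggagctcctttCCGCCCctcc
*Aspn*, chr13:49544193-49544442, plus strand: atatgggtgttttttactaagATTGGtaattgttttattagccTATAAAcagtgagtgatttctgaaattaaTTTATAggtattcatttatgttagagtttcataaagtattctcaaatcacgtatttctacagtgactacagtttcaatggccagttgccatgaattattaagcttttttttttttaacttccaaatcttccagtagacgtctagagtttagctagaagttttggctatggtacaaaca
*Ogn*, chr13:49607765-49608014, plus strand: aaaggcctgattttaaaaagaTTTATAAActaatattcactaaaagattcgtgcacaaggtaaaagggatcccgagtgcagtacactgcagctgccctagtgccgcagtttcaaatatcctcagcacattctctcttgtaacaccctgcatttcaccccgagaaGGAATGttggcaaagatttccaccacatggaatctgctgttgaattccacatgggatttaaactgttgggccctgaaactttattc
Of the bases in these windows, 58.8% and 62.4% were G or C for *Thbs3* and *Vcan* and 30% and 42% for *Aspn* and *Ogn*, against a median of 52.4% over all windows.

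Scaled to exon length, the level of these genes spanned 3 orders of magnitude. Levels here are normalized CPM per kilobase of exon (RPKM), as a mean over the 8 libraries. *Sparc*, which encodes a collagen-binding calcium-binding matricellular protein, was the highest at 276, with a range over the libraries from 161 to 416. *Mgp*, the vitamin K-dependent inhibitor of calcification matrix Gla protein, followed at 233, then *Serpinh1*, the collagen chaperone HSP47, at 187, and *Sparcl1* (hevin), a relative of *Sparc*, at 176. The ranges of neighbours in this order overlapped. *Ltbp4* (112), *Bgn* (104) and *Dcn* (60.9) came next. *Fbln2*, *Fbln1*, *Ogn*, *Lum* and *Pcolce* lay together between 28.2 and 32.7. *Fn1* was at 10.1 and *Fbn1* at 12.1, and the lowest detected genes were *Vcan* (1.53), *Spp1* (1.41), *Tnc* (1.37) and *Fbn2* (0.248). *Fbn1* thus stood far above its paralog *Fbn2*, which is known mainly as the fibrillin of development, and the range of *Fbn2* over the libraries (0.0598 to 0.428) ended below the lowest library of *Fbn1* (5.63).

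**Figure D3:**
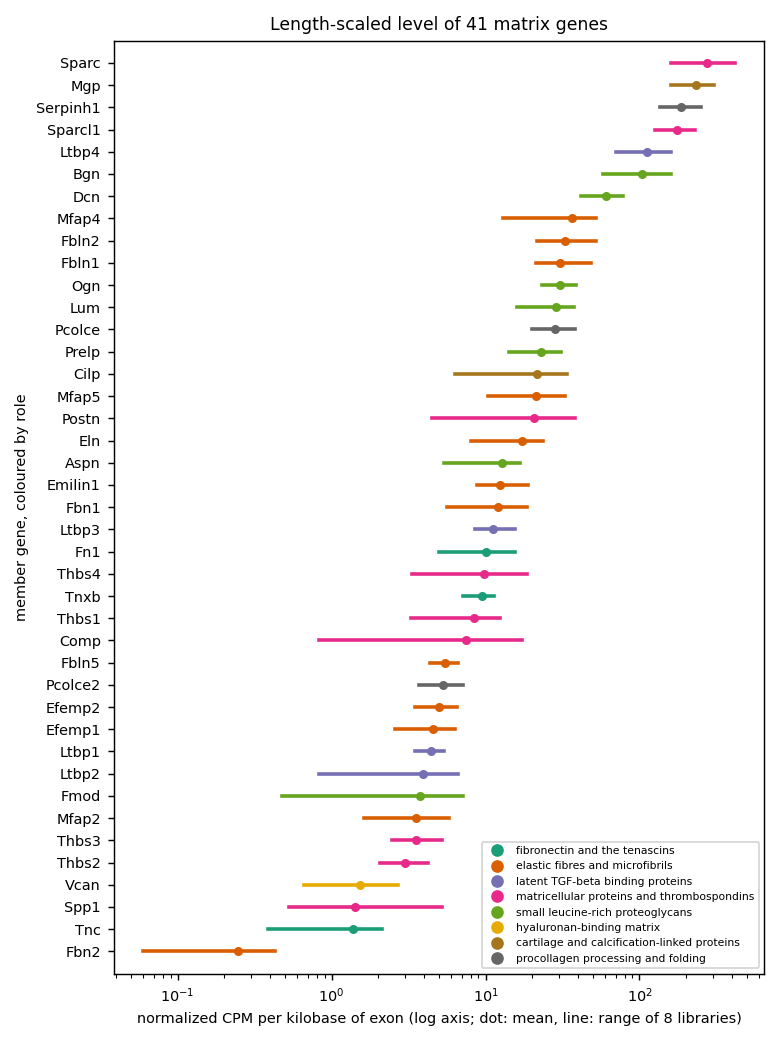
Length-scaled level of 41 matrix genes as normalized CPM per kilobase of exon (log axis); dots are means and lines the range of the 8 libraries, coloured by role. *Sparc* is at the top with a mean of 276 and *Fbn2* at the bottom with 0.248.

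Among the elastic fibre and microfibril genes, 5 of 12 had an unadjusted p under 0.05 and all 5 were lower in the TK-/- tagged libraries, with a median log2 fold change of -0.45 over the 12. Over all genes tested the share was 8.96%, and 5.64% in the lower direction, to be set beside each count by role below. With both libraries that stood apart left out, 2 of the 12 were lower and 1 higher at that p, against 7.1% of all genes in that fit. *Fbn1* (ENSMUSG00000027204, chromosome 2 of GRCm38, 125300594 to 125507993, minus strand), which encodes the main fibrillin of adult microfibrils, had 156, 227, 209 and 162 normalized CPM in control-tagged replicates 1 to 4. In TK-/- tagged replicates 1 to 4 it had 107, 87.7, 68.3 and 152. Every control-tagged library was above every TK-/- tagged library, although replicate 1 of the former and replicate 4 of the latter nearly met. The means were 189 ± 35 and 104 ± 36.1 normalized CPM (SD, n = 4 per group). The log2 fold change was -0.86 (SE 0.22), 44.9% lower, with an FDR = 0.442 by edgeR's quasi-likelihood test, 0.0587 by its likelihood ratio test and 0.0561 by DESeq2. The exact 2-sided permutation p was 0.0286, the smallest that 4 libraries against 4 can give. Over the 17 alternatives the log2 fold change of *Fbn1* stayed between -1.10 and -0.60. On the opposite strand the annotated gene *Gm9913* covers 2442 exon bases of *Fbn1*, 20.1% of them, and had a mean of 0.206 normalized CPM. How the counting treated strand is not stated, so reads there could have been shared or dropped.

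*Fbln2* (ENSMUSG00000064080, chromosome 6, 91212455 to 91272540), a fibulin that binds fibrillin and fibronectin, had 173, 289.7, 331 and 231 normalized CPM in control-tagged replicates 1 to 4. The TK-/- tagged replicates 1 to 4 had 147, 168, 138 and 187. The groups met in a single crossing, with control-tagged replicate 1 below TK-/- tagged replicate 4. The log2 fold change was -0.68 (SE 0.18, FDR = 0.442 by edgeR's quasi-likelihood test and 0.077 by its likelihood ratio test), and the exact permutation p was 0.0571. Its paralog *Fbln1* had the opposite sign, with means of 122 ± 18 and 145 ± 50.7 normalized CPM (SD, n = 4 per group) and a log2 fold change of 0.24 (SE 0.21). The ratio of *Fbln2* to *Fbln1* within a library, which no scaling of the library changes, was 1.24 to 2.73 in the control-tagged and 0.69 to 1.48 in the TK-/- tagged libraries, overlapping ranges whose difference was not tested.

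*Emilin1* (ENSMUSG00000029163, chromosome 5, 30913402 to 30921277), whose glycoprotein sits at the interface of elastin and microfibrils, had 63.9, 93.3, 63.8 and 60.3 normalized CPM in control-tagged replicates 1 to 4 and 54.9, 55.3, 43.2 and 54.2 in TK-/- tagged replicates 1 to 4. The groups did not overlap, and 1 library of each, control-tagged replicate 2 and TK-/- tagged replicate 3, lay far from the rest of its group. The log2 fold change was -0.44 (SE 0.14, unadjusted p = 0.0106 in edgeR's fit) and shrank to -0.19 with both of those libraries left out. *Efemp2* (fibulin-4), needed to bring lysyl oxidase to elastin, had 22.3, 23.2, 24.7 and 16.4 normalized CPM against 16.9, 15.2, 13.3 and 18 in replicates 1 to 4 of each group. Only control-tagged replicate 4 lay within the TK-/- tagged range, and the log2 fold change was -0.45 (SE 0.15, unadjusted p = 0.00939 in edgeR's fit). The annotation puts 173 of its exon bases, 4.57%, on those of *Mus81* on the opposite strand.

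*Mfap5*, a microfibril-associated glycoprotein, had 82.4, 117, 82.5 and 79.1 normalized CPM in control-tagged and 75.1, 48, 37.3 and 87.6 in TK-/- tagged replicates 1 to 4, a log2 fold change of -0.54 (SE 0.23) with groups that overlapped. It was -0.36 without TK-/- tagged replicate 3 and -0.21 without both libraries that stood apart. *Mfap4*, the highest of the elastic fibre genes per length, showed the library pattern more than a group pattern. Its normalized CPM was 79.3, 88.6, 76.7 and 73.8 in the control-tagged replicates 1 to 4, and 101, 35.9, 24.9 and 78.7 in the TK-/- tagged replicates 1 to 4. The TK-/- tagged group held both its highest and its lowest value (log2 fold change -0.41, SE 0.34, and -0.09 without both). Elastin itself (*Eln*) had means of 163 ± 30.2 and 118 ± 46.4 normalized CPM (SD, n = 4 per group) and a log2 fold change of -0.46 (SE 0.25), with overlap, and of -0.17 without both. *Fbln5*, *Efemp1*, *Mfap2* and *Fbn2* had log2 fold changes from -0.52 to -0.19, none with an unadjusted p under 0.05. *Fbn2* rests on 10 to 78 reads per library and *Mfap2* on 25 to 88, so their counting error is large.

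**Figure D4:**
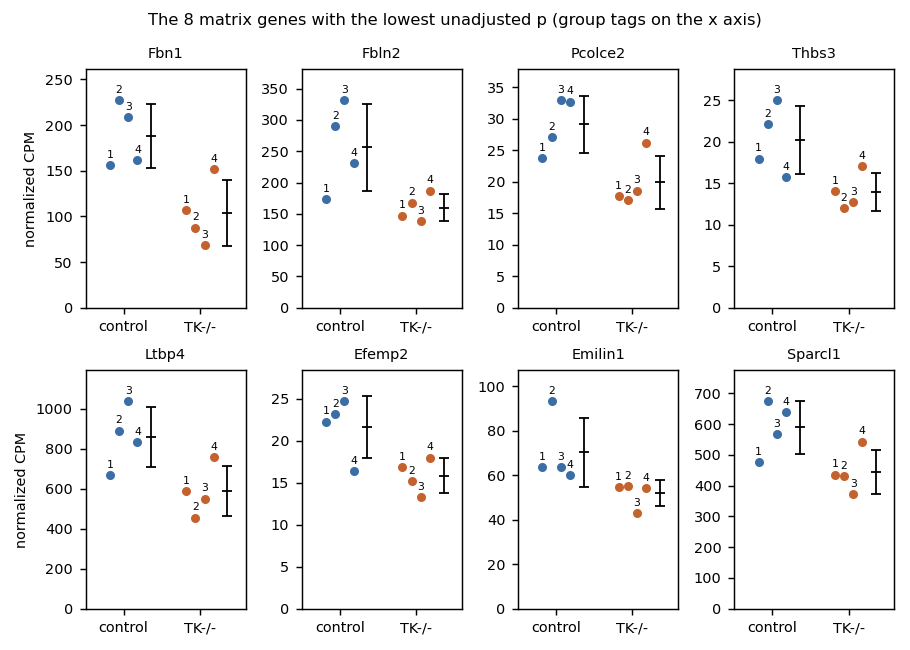
Normalized CPM (y axes from 0) of the 8 matrix genes with the lowest unadjusted p, for each of 4 control-tagged (blue) and 4 TK-/- tagged (orange) libraries numbered by replicate, with mean and SD in black. In *Fbn1* and *Emilin1* the groups do not overlap, and in the other 6 at least 1 library lies within the other group's range.

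Of the 4 LTBP genes, *Ltbp3* and *Ltbp4* had an unadjusted p under 0.05 and were lower, against 5.64% of all genes in that direction. With both libraries that stood apart left out, only *Ltbp4* of the 4 did. *Ltbp4* (ENSMUSG00000040488, chromosome 7, 27305136 to 27337692), by far the highest of the 4 per length, had 670.0, 891, 1037 and 835 normalized CPM in control-tagged replicates 1 to 4. It had 588, 456, 550.4 and 758 in TK-/- tagged replicates 1 to 4. The groups crossed only through control-tagged replicate 1 and TK-/- tagged replicate 4. The log2 fold change was -0.55 (SE 0.17, unadjusted p = 0.00822 and FDR = 0.464 in edgeR's quasi-likelihood test), with an exact permutation p of 0.0571, and it stayed at -0.44 or lower over the 17 alternatives. *Ltbp3*, which like *Ltbp1* binds latent TGF-beta covalently, had 103, 106, 140.4 and 97.2 against 103, 85, 77 and 96 normalized CPM in replicates 1 to 4, with a log2 fold change of -0.31 (SE 0.13). *Ltbp1* was level between groups, with means of 46.1 ± 8.58 and 48.5 ± 1.35 normalized CPM (SD, n = 4 per group). *Ltbp2*, which binds microfibrils and not latent TGF-beta, ranged from 6.79 normalized CPM in TK-/- tagged replicate 3 to 53.9 in control-tagged replicate 2 (log2 fold change -0.41, SE 0.48).

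Of the 9 matricellular genes, 3 had an unadjusted p under 0.05, all lower: *Sparc*, *Sparcl1* and *Thbs3*. The share of all genes in that direction was 5.64%. With both libraries that stood apart left out, only *Thbs3* of the 9 had such a p. *Sparc* (ENSMUSG00000018593, chromosome 11, 55394500 to 55423183) had 1107, 1575, 1135 and 1065 normalized CPM in control-tagged replicates 1 to 4 and 1063, 813, 609 and 1004 in TK-/- tagged replicates 1 to 4. The groups did not overlap, but by a margin of 1065 against 1063. Its log2 fold change was -0.48 (SE 0.19, FDR = 0.506 by edgeR's quasi-likelihood test), and -0.20 with both libraries that stood apart left out. *Sparcl1* had 477, 674, 568 and 639.8 against 436, 432, 372 and 543 normalized CPM in replicates 1 to 4 of each group, with 1 control-tagged library inside the TK-/- tagged range (log2 fold change -0.40, SE 0.14, and -0.26 without both). *Thbs3* (ENSMUSG00000028047, chromosome 3, 89215180 to 89226837), a pentameric thrombospondin, had 18, 22.1, 25 and 15.8 normalized CPM in control-tagged replicates 1 to 4 and 14.1, 12, 12.7 and 17.1 in TK-/- tagged replicates 1 to 4. Control-tagged replicate 4 and TK-/- tagged replicate 4 crossed, and the log2 fold change was -0.54 (SE 0.16, unadjusted p = 0.00652 in edgeR's fit). Its promoter window, printed above, holds 1 GC box. *Thbs3* rests on 135 to 372 reads per library and shares 318 exon bases, 6.59%, with *Mtx1* on the opposite strand. Its relative *Thbs2* had a log2 fold change of 0.08 (SE 0.19).

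The matricellular genes best known for induction in the injured heart gave no group difference beyond their spread. Periostin (*Postn*), made by activated fibroblasts, had 222, 329.7, 128 and 159.8 normalized CPM in control-tagged and 204, 104, 39 and 251 in TK-/- tagged replicates 1 to 4. Its log2 fold change was -0.49 (SE 0.46) and turned to 0.14 with the libraries that stood apart left out. *Thbs1*, an activator of latent TGF-beta, had means of 59.4 ± 18.2 and 42.5 ± 23.6 normalized CPM (SD, n = 4 per group) and a log2 fold change of -0.48 (SE 0.34). Osteopontin (*Spp1*), a cytokine-like protein of macrophages and fibroblasts, had the lowest log2 fold change of all 41 genes, -1.29 (SE 0.64). It rested on 11 to 118 reads per library and on 1 library, since control-tagged replicate 2 had 8.57 normalized CPM and the other libraries 0.869 to 2.6. Over the 17 alternatives its log2 fold change ran from -1.82 to -0.04.

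Fibronectin and both tenascins had log2 fold changes below 0, and *Tnxb* had an unadjusted p under 0.05. *Fn1*, the highest of the 3 per length, had 139.8, 181, 132 and 104 normalized CPM in control-tagged replicates 1 to 4 and 137, 66.6, 58.1 and 125 in TK-/- tagged replicates 1 to 4. Replicates 1 and 4 of the TK-/- tagged group lay within the control-tagged range and the other 2 below it, for a log2 fold change of -0.53 (SE 0.26, unadjusted p = 0.0669 in edgeR's fit), which became -0.20 with both libraries that stood apart left out. *Tnxb*, the tenascin X of resting connective tissue, had 109, 131, 138 and 132 against 110.4, 98.3, 87.8 and 115 normalized CPM in replicates 1 to 4 of each group. It varied little, and its log2 fold change of -0.31 (SE 0.11) had an unadjusted p = 0.0168 in edgeR's fit. *Tnc*, the tenascin induced in remodelling tissue, averaged 12.3 ± 4.58 normalized CPM in the control-tagged and 9 ± 5.1 in the TK-/- tagged libraries (SD, n = 4 each). Its log2 fold change was -0.44 (SE 0.40), -0.15 without TK-/- tagged replicate 3 and -0.02 without both.

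Of the 7 small leucine-rich proteoglycans, 1 reached an unadjusted p under 0.05, where 8.96% of all genes did, and log2 fold changes ran from -0.44 to 0.19 with a median of -0.22. That gene was *Bgn* (biglycan, ENSMUSG00000031375, chromosome X, 73483602 to 73495933), with 675, 977, 636 and 639 normalized CPM in control-tagged and 623, 523, 353 and 658 in TK-/- tagged replicates 1 to 4. TK-/- tagged replicate 4 lay inside the control-tagged range, and the log2 fold change of -0.44 (SE 0.20) became -0.11 with both libraries that stood apart left out. *Dcn* (decorin), the close relative of *Bgn* that binds collagen and TGF-beta, had means of 367 ± 75.4 and 344 ± 87.1 normalized CPM (SD, n = 4 per group) and a log2 fold change of -0.09 (SE 0.19). *Lum*, *Prelp* and *Aspn* had log2 fold changes from -0.37 to -0.22. *Ogn* (osteoglycin), with 72.7 ± 9.49 normalized CPM in the control-tagged and 82.9 ± 17.3 in the TK-/- tagged libraries (SD, n = 4 each), had a log2 fold change of 0.19 (SE 0.15) and kept a value above 0 in all 17 alternatives. It had an unadjusted p under 0.05 where TK-/- tagged replicate 3 was left out, as *Fbln1* did.

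*Vcan* (versican, ENSMUSG00000021614, chromosome 13, 89655312 to 89742509), a large hyaluronan-binding proteoglycan of provisional matrix, had 25.1, 39.3, 24.4 and 20.5 normalized CPM in control-tagged replicates 1 to 4 and 15.3, 17.2, 9.64 and 25.1 in TK-/- tagged replicates 1 to 4. Only TK-/- tagged replicate 4 reached the control-tagged range. The log2 fold change was -0.70 (SE 0.26, unadjusted p = 0.0209 in edgeR's fit) and -0.28 with the libraries that stood apart left out. Its window holds 2 GC boxes. *Mgp* had 338, 362, 319 and 246 against 264, 201, 189 and 299 normalized CPM in replicates 1 to 4 of each group, with overlap and a log2 fold change of -0.41 (SE 0.16), or -0.24 without both.

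The 3 genes of procollagen processing and folding each had an unadjusted p under 0.05 and were lower, against 5.64% of all genes in that direction. With both libraries that stood apart left out, *Pcolce2* and *Serpinh1* did. *Pcolce2* (ENSMUSG00000015354, chromosome 9, 95637601 to 95698096), an enhancer of procollagen C-proteinase, had 23.7, 27.1, 32.9 and 32.7 normalized CPM in control-tagged and 17.7, 17.1, 18.6 and 26.2 in TK-/- tagged replicates 1 to 4. Here TK-/- tagged replicate 3, the lowest library for most matrix genes, was level with replicates 1 and 2. The log2 fold change was -0.55 (SE 0.16, unadjusted p = 0.00451 and FDR = 0.448 in edgeR's quasi-likelihood test), the exact permutation p was 0.0571, and the 17 alternatives kept it between -0.71 and -0.49. *Pcolce*, the other enhancer, had 112, 146, 120.2 and 101 against 97.8, 98.1, 76.4 and 113 normalized CPM in replicates 1 to 4 (log2 fold change -0.32, SE 0.14). It was -0.21 without control-tagged replicate 2 and -0.11 without both libraries that stood apart. *Serpinh1* had 610.4, 478, 572 and 405 against 429, 331, 394 and 431 normalized CPM (log2 fold change -0.38, SE 0.14), with control-tagged replicate 4 inside the TK-/- tagged range.

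A further pattern ran across the groups. The 9 genes with the widest range over the libraries were *Comp* (20.9-fold from the lowest to the highest library), *Fmod* (14.9-fold), *Spp1* (9.86-fold), *Postn* (8.45-fold), *Ltbp2* (7.94-fold), *Fbn2* (7.17-fold), *Thbs4* (5.6-fold), *Tnc* (5.49-fold) and *Cilp* (5.37-fold). Cartilage oligomeric matrix protein (*Comp*) and fibromodulin (*Fmod*) are known from cartilage and tendon, *Thbs4* from tendon and loaded muscle, and *Cilp* is a cartilage protein also found in cardiac fibroblasts. *Comp* had 51.1, 26.3, 11.4 and 5.84 normalized CPM in control-tagged and 24.8, 13.6, 2.45 and 42.1 in TK-/- tagged replicates 1 to 4. *Fmod* had 23.6, 11.5, 5.31 and 6.4 in the former and 14.5, 12.7, 1.58 and 23.3 in the latter. *Cilp* had 145, 125, 85.6 and 77.7 in the former and 88.3, 56.8, 26.9 and 127 in the latter. In each of these 3 genes the highest libraries were control-tagged replicate 1 and TK-/- tagged replicate 4, and the lowest was TK-/- tagged replicate 3. Both groups spanned most of the range in *Comp* and *Fmod*, while no control-tagged library of *Cilp* was below 77.7. The log2 fold changes between groups were -0.19 (SE 0.69) for *Comp* and 0.15 (SE 0.59) for *Fmod*. They were -0.53 (SE 0.37) for *Cilp* and -0.64 (SE 0.37) for *Thbs4*, with groups that overlapped in both.

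**Figure D5:**
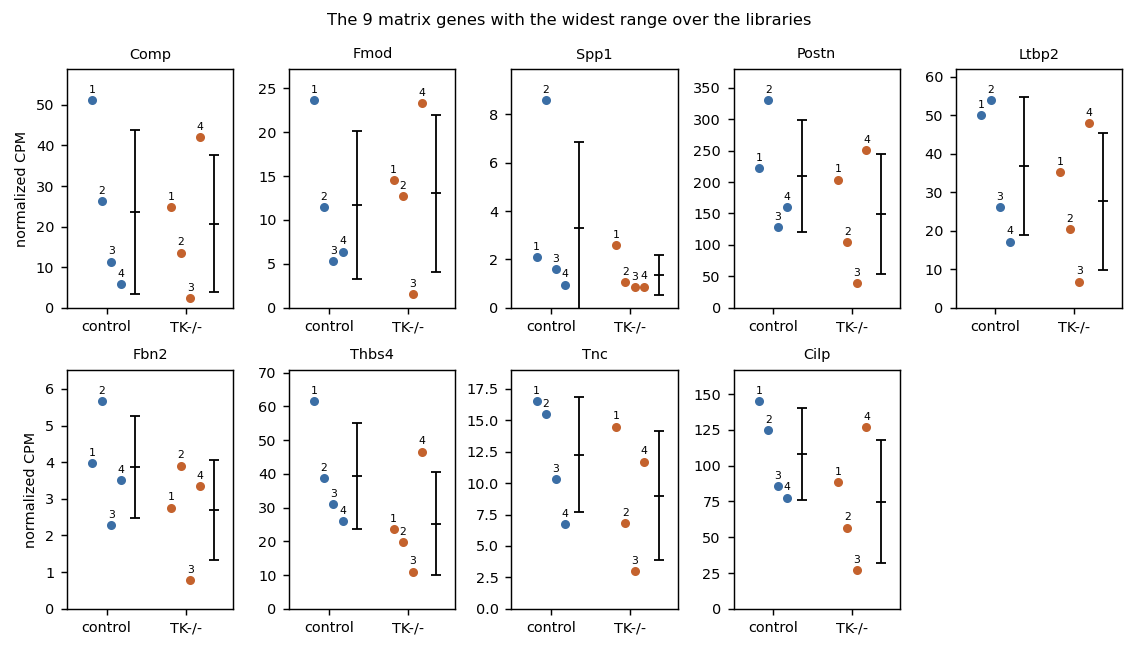
Normalized CPM (y axes from 0) of the 9 matrix genes with the widest range over the libraries, control-tagged in blue and TK-/- tagged in orange, points numbered by replicate, mean and SD in black. For *Comp*, *Fmod* and *Cilp*, control-tagged replicate 1 and TK-/- tagged replicate 4 are the highest and TK-/- tagged replicate 3 the lowest.

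Markers of tissue that could adjoin the LV were at these levels beside it. Of the 4 atrial markers, *Myl4* lay between 2.9 and 4.86 normalized CPM over the 8 libraries, *Myl7* between 0.237 and 1.23 and *Sln* between 0 and 0.266. The fourth, *Nppa*, encodes the natriuretic peptide ANP, which loaded ventricles express too, and lay between 498 and 1425 with overlapping groups (log2 fold change -0.31, SE 0.27). By RT-qPCR the paper reports ANP mRNA raised after angII, mainly in VEGFR-1 TK-/- mice. The sign here is the other way, but with overlap it does not settle the labels. Summed atrial markers, nearly all *Nppa*, were 1249, 1193, 1310.2 and 787 normalized CPM in control-tagged replicates 1 to 4. They were 881, 861, 503 and 1431 in TK-/- tagged replicates 1 to 4, so replicates 3 and 4 of this group were the lowest and highest. The 3 listed valve and cartilage markers summed to between 10.5 and 15.6 normalized CPM in every library, most of it *Scx* (8.21 to 13.6). The other listed markers were low and varied in proportion, with *Acan* between 0.374 and 1.22 and *Sox9* between 1.11 and 3.41. The part of such tissue in the values of *Comp*, *Fmod* and *Cilp* was not tested.

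Other matrix genes were read beside these. Among 42 further glycoproteins and proteoglycans, 36 were tested, and 29 had a log2 fold change below 0 and 7 above, with a median of -0.22. An unadjusted p under 0.05 was found for 10, all lower in the TK-/- tagged libraries. Over all genes tested, the share to set beside this and the counts below was 8.96%, and 5.64% in the lower direction. These included the basement membrane genes *Nid1* (-0.36), *Nid2* (-0.61, unadjusted p = 0.000584 in edgeR's fit) and *Hspg2* (-0.40), and *Vwf* (-0.62), the von Willebrand factor of endothelium. Of 16 collagen genes, all 16 were below 0 and 6 had an unadjusted p under 0.05, all lower, with a median of -0.47, among them *Col4a1* (-0.54) and *Col4a2* (-0.51) of basement membrane and *Col15a1* (-0.57). Of 15 tested genes for crosslinking, processing and TGF-beta ligands, 14 were below 0 and 4 had an unadjusted p under 0.05, all lower, with a median of -0.28: *Loxl1* (-0.63), which crosslinks elastin, *Loxl2* (-0.75), *Plod3* (-0.20) and *Tgfb2* (-0.57). None of these genes was called by edgeR's quasi-likelihood test. Its likelihood ratio test called 2 of the 36 glycoproteins, against 0.391% of all genes, and DESeq2 called 1, against 0.236%. Both called 0 of the collagen and crosslinking genes. With both libraries that stood apart left out, 5 of 34 further glycoproteins tested, 1 of 16 collagen genes and 1 of 15 crosslinking and processing genes had an unadjusted p under 0.05, all lower, and the medians were -0.15, -0.09 and -0.14. In that fit the share of all genes was 7.1%, and 4.18% in the lower direction. The counts of collagen and of crosslinking and processing genes were near the former. Beside these values stand the cell markers. Of 4 endothelial markers 3 had an unadjusted p under 0.05, all lower (1024 to 1328 summed normalized CPM in the control-tagged and 934 to 1062 in the TK-/- tagged group). Of 6 fibroblast markers 0 did, with all 6 below 0 and a median log2 fold change of -0.14 (1486 to 1837 and 1176 to 1806). Most of this sum was *Gsn* (means of 1067 and 983). The markers *Col1a1* and *Dpt* are also counted among the collagen genes and the further glycoproteins, so the sum is not separate from the matrix lists. Of 5 macrophage and leukocyte markers 2 did, both lower (114 to 152 and 80 to 120.2). Of 6 cardiomyocyte markers 1, *Tnni3*, did and was higher (55491 to 87276 and 71901 to 89463). Of 4 smooth muscle markers 0 did, with a median of 0.02. Mesothelial markers (17.2 to 59.3 and 17.6 to 58.6) and red blood cell markers (309 to 766 and 359 to 601) overlapped widely. The part of these cells in the matrix values was not tested.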

How the data were processed

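Per the paper's methods and the labels, the authors trimmed paired reads with Trim Galore 0.4.4, aligned them to GRCm38 with STAR 2.5.4b and deposited whole-number counts per gene from featureCounts on GENCODE, not normalized. The labels describe ribosomal RNA depletion and the paper poly-A selection. How strand and multiple alignments were counted is not given in the sources used here, which matters for genes with antisense neighbours. All 8 columns were used.

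Only genes with CPM 1 or more in 2 or more libraries entered (13542). After TMM scaling (factors 0.917 to 1.12), edgeR 4.0.16 in R 4.3.3 gave quasi-likelihood F tests with no covariates. FDR values are Benjamini-Hochberg adjusted over the 13542 genes. SE is the log2 fold change divided by the root of F. Log2 normalized CPM used a prior count of 2. The exact permutation test was 2-sided over all 70 splits. Exon lengths and coordinates are from GENCODE M21 of GRCm38, while the authors counted on an earlier release. The test was checked on counts simulated with log2 changes of 1 or 1.5 either way, of which it recovered 96% and 100%. These changes are larger than the median of 0.44 in the matrix genes. Shifts that many genes share in 1 library were not simulated, so the check does not cover differences like those here. Within groups, pairs of libraries differed beyond sampling noise (chi-square over its degrees of freedom, 6.77 to 49.9), so each was 1 replicate.

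Values in every library are given for genes with an unadjusted p under 0.05, groups without overlap or the highest length-scaled level of their role. *Postn*, *Comp*, *Fmod* and *Cilp* were given library by library, ratios of paralogs and promoter letters chosen, and the fit without both libraries that stood apart added, after values were seen. The genes and lists were chosen with earlier results of these data known. As alternatives, the fit was repeated with the likelihood ratio test, DESeq2 1.42.0, robust dispersions, RLE factors, total counts, no filter, filterByExpr, each library left out, other thresholds and the replicate number as a block.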

Additional observations from a re-analysis of the deposited data

Results flagged for a closer look

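Each of the 41 genes tested was checked for a library far from the other 3 of its group, 82 groups in all, of which chance flags about 1 in 20. There were 9 such values. Control-tagged replicate 2 was far above the others of its group in 4 genes besides Spp1: *Emilin1* (93.3 normalized CPM against 60.3 to 63.9), *Mfap5* (117 against 79.1 to 82.5), *Sparc* (1575 against 1065 to 1135) and *Bgn* (977 against 636 to 675). *Spp1* was far above its group in control-tagged replicate 2 (8.57 against 0.96 to 2.1) and in TK-/- tagged replicate 1 (2.6 against 0.869 to 1.07). TK-/- tagged replicate 3 was far below its group in *Emilin1* (43.2 against 54.2 to 55.3). *Mfap2* was far above its group in control-tagged replicate 4 (7.04 against 4.19 to 4.37), and *Pcolce2* in TK-/- tagged replicate 4 (26.2 against 17.1 to 18.6). What sets these libraries apart was not tested.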

How the results depend on the processing

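The quasi-likelihood test called 0 of the 41 genes. The likelihood ratio test and DESeq2 each called 2 (*Fbn1* and *Fbln2*), and the fit with no filter on low counts called 1 (*Fbn1*), where 0.102% of all genes were called. The other alternatives, including an FDR under 0.05 and no limit on fold, called 0. The number of genes with an unadjusted p under 0.05, 17 with all libraries, ranged from 11 to 25 when each library was left out in turn, and it was 8 with control-tagged replicate 2 and TK-/- tagged replicate 3 both left out, a fit added after the data were seen and whose choice of libraries makes differences shrink. It lay between 14 and 21 in the other fits. The 19 genes given library by library by the stated rule kept the sign of their log2 fold change in every refit. Their side of the threshold was the same in 318 refits, and 5 passed it, those of *Fbn1* and *Fbln2* named above. Other scalings moved the median of all genes by at most 0.02 in size and left 36 of the 41 genes below 0. Replicate numbers gave no steady pairing of the libraries. The correlation of deviations between libraries of the same number was -0.029, 0.029, 0.343 and -0.0555. The value of 0.343, for replicate 3, was the highest of any pair across the groups. Control-tagged replicate 2 went best with TK-/- tagged replicate 1 (0.302). With so few libraries, these correlations cannot exclude a pairing. With the replicate number as a block, 0 genes were called and 21 had an unadjusted p under 0.05. Depth limits the low genes, with as few as 10 reads in a library for *Fbn2*, 11 for *Spp1*, 20 for *Fmod*, 25 for *Mfap2* and 31 for *Comp*.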
